A study of Mus musculus with 13 samples.

Results

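Myelin genes, 9 transcripts that mature oligodendrocytes make in quantity, were followed in the right hemisphere of mice at postnatal day 11. The members were taken by name, Mbp, Mog, Mag, Mobp, Cnp, Cldn11, Mal, Ugt8a and Opalin, and all 9 were found among the 48795 genes of the table of estimated counts. RNA was sequenced from 5 nlsYAP5SA mice, with the genotype NexCre +/- YAP5SAnls +/-, from 5 littermate controls, NexCre -/- YAP5SAnls +/-, and from 3 C57BL/6 mice of the same age without either allele. All 3 groups were on a C57BL/6J background. The transgene encodes a nuclear YAP1 that the Hippo kinases cannot phosphorylate, silent until Cre removes a stop cassette, and the controls carried it in that silent state. NEX-Cre drives recombination in precursors of cortical and hippocampal pyramidal neurons, a lineage not known to give oligodendrocytes. The hemispheres were taken without olfactory bulb and cerebellum, the littermates came from more than a single mating and were not assigned to litters in the labels, and the sex of the mice was not given. Each sample was a separate mouse, so p-values measure the spread between mice of a group.

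Myelin is the membrane that oligodendrocytes wrap around axons of the central nervous system, in mice mostly during the first weeks after birth, when precursors leave the cell cycle, pass through a newly formed stage and switch on the genes of the sheath. Its proteins fall into classes by place. Mbp and Mobp are basic proteins that hold the inner faces of compact myelin together, while Mag on the innermost and Mog on the outermost wraps are surface glycoproteins of the immunoglobulin family, and Opalin is a transmembrane protein of oligodendrocytes. Cnp is an enzyme of the uncompacted cytoplasmic channels, Cldn11 forms the tight junctions of the sheath, Ugt8a makes the galactosylceramide of its lipid bilayer, and Mal is a proteolipid of lipid rafts. On GRCm38, Mbp (ENSMUSG00000041607) lies on chromosome 18 from 82475146 to 82585637, Mobp (ENSMUSG00000032517) on chromosome 9 from 120149707 to 120181484 and Cnp (ENSMUSG00000006782) on chromosome 11 from 100574904 to 100591729. Mag (ENSMUSG00000036634) lies on chromosome 7 from 30899176 to 30914873, Mog (ENSMUSG00000076439) on chromosome 17 from 37010743 to 37023398 and Opalin (ENSMUSG00000050121) on chromosome 19 from 41061710 to 41077113. Cldn11 (ENSMUSG00000037625) and Ugt8a (ENSMUSG00000032854) both lie on chromosome 3, from 31149920 to 31164324 and from 125865271 to 125938619, and Mal (ENSMUSG00000027375) lies on chromosome 2 from 127633226 to 127656695. Each count covers all exons of a gene's transcripts. The question that the comparisons address is whether the level of these genes differed in a hemisphere in which active YAP1 was switched on in the neuronal lineage.

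The labels and the tissue were checked first. Levels are given as CPM, counts scaled to a library of 1000000 reads, with library sizes adjusted between samples by TMM normalization. Yap1 was at 20.7 ± 0.964 CPM (SD, n = 5) in controls and at 24.2 ± 1.52 (n = 5) in nlsYAP5SA mice (log2 fold change 0.23, adjusted p = 0.0361), a call lost in 15 of 21 alternatives, among them 8 of the 10 in which 1 mouse was left out and the fit with Y-linked expression as a covariate (adjusted p = 0.366). Neurod6, the gene whose locus drives the Cre, was at 97.2 ± 7.61 and 49.2 ± 7.16 CPM (log2 fold change -0.98, adjusted p = 2.65e-05). Totals lay between 20871566 and 25524349 estimated counts per sample and overlapped between the groups. Of 13 markers of hindbrain and brain stem, a heavily myelinated region, 9 stayed at or below 10 counts in every sample, as did Pcp2 and Gabra6 of the cerebellum. Ttr, the leading transcript of the choroid plexus, varied from 0.822 to 217 CPM among the controls, from 0.783 to 276 among nlsYAP5SA mice and from 1.52 to 239 among C57BL/6 mice. Of the 9 members, Opalin had the fewest reads, 13 to 57 per sample in nlsYAP5SA mice and 48 to 101 in controls.

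Because the members moved together across the samples, the sequence before the start site is shown for the 3 whose mean was lowest in nlsYAP5SA mice relative to control, among the 8 members with an entry in the RefSeq promoter table for GRCm38.p6. Mbp was not matched. Each run is the 250 bases before the annotated start, 5′ to 3′ on the minus strand of the chromosome, and capitals mark matches, on either strand, to 3 short motifs. These were ACAANG, the core that SOX proteins bind, CTGGNAC, the core bound by MYRF, and GGAATG, the core bound by the TEAD partners of YAP1, with N for any base. The Opalin run lies at chr19:41077114-41077363, the Mog run at chr17:37023399-37023648 and the Mag run at chr7:30914864-30915113.
Opalin: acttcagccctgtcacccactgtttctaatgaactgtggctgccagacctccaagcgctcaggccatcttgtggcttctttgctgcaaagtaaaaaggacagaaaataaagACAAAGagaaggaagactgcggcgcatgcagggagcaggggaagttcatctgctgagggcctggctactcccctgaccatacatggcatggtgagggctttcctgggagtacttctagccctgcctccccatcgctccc
Mog: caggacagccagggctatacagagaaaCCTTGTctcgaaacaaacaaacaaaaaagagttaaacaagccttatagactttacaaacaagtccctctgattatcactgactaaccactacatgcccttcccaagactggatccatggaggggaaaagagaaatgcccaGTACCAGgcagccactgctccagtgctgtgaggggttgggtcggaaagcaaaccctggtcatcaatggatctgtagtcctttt
Mag: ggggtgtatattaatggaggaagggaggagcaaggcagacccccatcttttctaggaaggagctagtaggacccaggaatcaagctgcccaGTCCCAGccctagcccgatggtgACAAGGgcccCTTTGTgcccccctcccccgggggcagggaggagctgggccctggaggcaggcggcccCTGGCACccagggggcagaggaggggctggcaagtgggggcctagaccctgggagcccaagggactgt
In these 3 runs the capitals are SOX or MYRF cores, and GGAATG was not among their letters. The Opalin run held 1 match, ACAAAG at -139 from the start. The Mog run held CCTTGT, the SOX core on the other strand, at -223 and GTACCAG, the MYRF core on the other strand, at -83. The Mag run held 2 matches of each, the SOX core at -136 and -126 and the MYRF core at -159 and -68. Counted per gene, over windows of the same length before any of its annotated starts, the SOX core was present for 5 of the 8 members (Mog, Mag, Mobp, Cnp and Opalin) and for 39.9% of 27025 genes, the MYRF core for 3 of 8 (Mog, Mag and Cnp) and for 17.9% of genes, and the TEAD core for 3 of 8 (Mag, from another of its starts, Cnp and Mal) and for 14.4% of genes. Counted per window, the SOX, MYRF and TEAD cores were in 7, 4 and 3 of the 10 windows of the members and in 36.3%, 16.1% and 12.6% of all 32851 windows. No match in the 3 runs overlapped another. Such matches are a description of letters and not of binding.

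Levels were compared between members per kilobase, as CPM divided by the summed exon length. In controls, Mbp stood highest at 153 CPM per kb, followed by Cnp at 71.6, Cldn11 at 49.9, Mobp at 39.9, Mag at 27.3, Ugt8a at 19.5, Mog at 14.96, Mal at 11.0 and Opalin at 1.02 (means, n = 5). The order of the means was the same in nlsYAP5SA and in C57BL/6 mice. In controls every neighbour in this order was ranked the same way in 5 of 5 samples, although the ranges over samples overlapped for all neighbours other than Mbp and Cnp, and Mal and Opalin. In nlsYAP5SA mice Mog and Mal were level, at 8.90 and 8.70 CPM per kb, and Mog was the higher of the pair in 2 of 5 samples. In C57BL/6 mice Ugt8a at 21.1 and Mog at 20.2 were ranked in the order of their means in 2 of 3 samples. When the longest transcript was used as the length, Mobp stood above Cldn11 in all 3 groups and above Cnp in C57BL/6 mice.

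**Figure D1:**
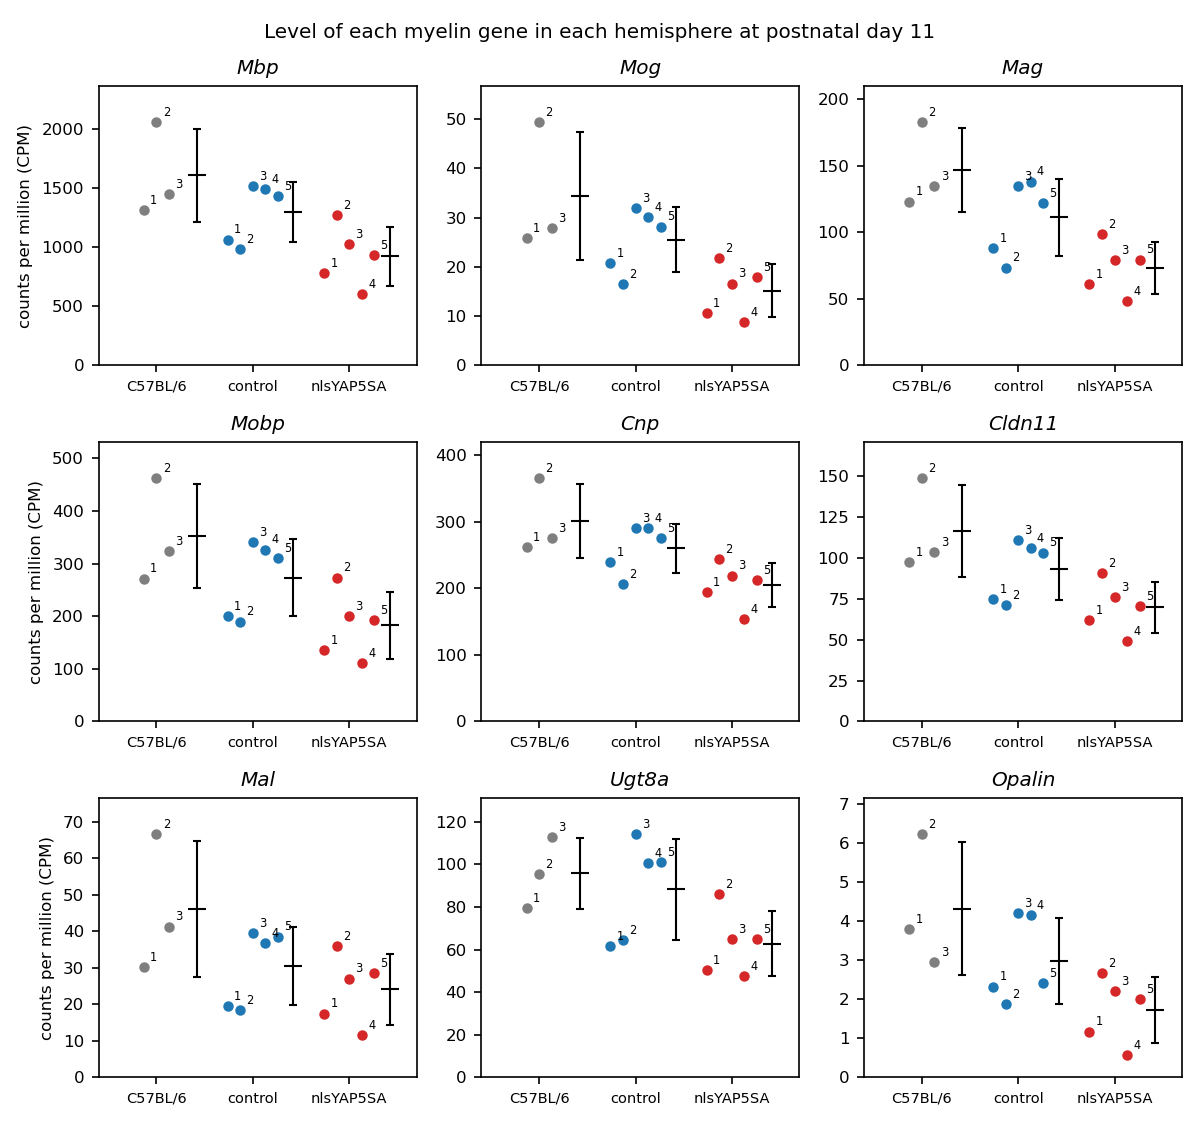
Level of each of the 9 myelin genes, in CPM on a linear axis from 0, in 3 C57BL/6 (grey), 5 control (blue) and 5 nlsYAP5SA (red) mice. Points are samples with their replicate number, and the black mark is the mean with its SD. Replicates 1 and 2 are the lowest controls in all 9 panels, replicate 4 is the lowest nlsYAP5SA sample, and C57BL/6 replicate 2 is the highest sample in 8 of 9, all but Ugt8a.

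Across the 13 samples the members moved together. Mbp was at 1064, 982, 1519, 1494 and 1435 CPM in controls 1 to 5, at 779, 1271, 1025, 601 and 935 in nlsYAP5SA mice 1 to 5, and at 1315, 2057 and 1451 in C57BL/6 mice 1 to 3. Controls 1 and 2 were thus low and within the range of the mutants, nlsYAP5SA replicate 2 was the highest mutant and above both of these controls, and C57BL/6 replicate 2 exceeded all other samples. Mobp, the other basic protein, covered 190 to 340 CPM in controls, 110 to 273 in nlsYAP5SA mice and 271 to 462 in C57BL/6 mice, with the same samples at the ends.

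Among the surface proteins, Mag was at 88.3, 73.4, 134, 138 and 122 CPM in controls, at 61.2, 98.8, 78.7, 48.1 and 79.3 in nlsYAP5SA mice and at 123, 182 and 134 in C57BL/6 mice. All 5 mutants were below the median of the controls, and nlsYAP5SA replicates 2, 3 and 5 lay within the control range. Mog was at 20.8, 16.5, 31.9, 30.1 and 28.2 CPM in controls, at 10.7, 21.8, 16.6, 8.78 and 17.99 in nlsYAP5SA mice and at 25.9, 49.3 and 27.9 in C57BL/6 mice. Only nlsYAP5SA replicates 1 and 4 fell below the lowest control. Opalin was at 2.33, 1.88, 4.21, 4.16 and 2.41 CPM in controls, at 1.18, 2.68, 2.21, 0.565 and 2.01 in nlsYAP5SA mice and at 3.81, 6.23 and 2.95 in C57BL/6 mice. Its highest mutant was above 3 of the 5 controls.

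Of the enzyme and the junction protein of the sheath, Cnp covered 206 to 290 CPM in controls, 154 to 244 in nlsYAP5SA mice and 262 to 365 in C57BL/6 mice. Cldn11 was at 74.6, 71.2, 111, 106 and 103 CPM in controls, at 61.9, 90.9, 76.1, 48.9 and 70.6 in nlsYAP5SA mice and at 97.3, 149 and 103 in C57BL/6 mice. Every C57BL/6 mouse stood above every mutant, and the controls straddled both. Mal spread from 18.5 to 39.5 CPM in controls, from 11.5 to 36.1 in nlsYAP5SA mice and from 30.3 to 66.6 in C57BL/6 mice. Ugt8a was at 61.5, 64.6, 114, 100 and 101 CPM in controls, at 50.3, 85.9, 64.9, 47.5 and 65.1 in nlsYAP5SA mice and at 79.4, 95.6 and 113 in C57BL/6 mice. It was the member for which C57BL/6 replicate 2 was not the highest sample. Bulk RNA cannot tell fewer oligodendrocytes from less RNA of these genes in each.

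In the fit of nlsYAP5SA against control mice, none of the 9 members passed an adjusted p of 0.05 (edgeR quasi-likelihood test, Benjamini-Hochberg over 16315 genes), whereas 10.8% of all genes did and 3.44% were called lower. All 9 fold changes were nonetheless below 0, which held for 51.3% of all genes, with a median of -0.49 on the log2 scale against -0.01 over all genes. Mean levels were 1299 ± 255 CPM in controls and 922 ± 253 in nlsYAP5SA mice for Mbp, 25.496 ± 6.57 and 15.2 ± 5.35 for Mog, and 111 ± 28.8 and 73.2 ± 19.3 for Mag (SD, n = 5 each). With p left unadjusted, 8 of 9 stood at 0.05 or below, beside 10.9% of all genes in that direction. The largest differences in mean level were those of Opalin, at -0.79 ± 0.35 (log2, SE, adjusted p = 0.187), and of Mog, at -0.75 ± 0.24 (adjusted p = 0.0686). Mag followed at -0.60 ± 0.20 (adjusted p = 0.0808) and Mobp at -0.58 ± 0.24 (adjusted p = 0.145). Mbp and Ugt8a both stood at -0.49, Cldn11 at -0.42 and Cnp at -0.35, with adjusted p of 0.112, 0.133, 0.132 and 0.0942. Mal had the smallest difference, -0.34 ± 0.30 (adjusted p = 0.534), and a 95% interval of -0.98 to 0.31 that spanned 0. Single mice moved the value of Mal, to -0.16 without nlsYAP5SA replicate 4 and to -0.53 without nlsYAP5SA replicate 2, and it was -0.63 with Y-linked expression and -0.51 with the Ttr level as a covariate. The ranges of the groups overlapped for all 9 members, while 3.57% of all genes were lower in nlsYAP5SA mice without overlap.

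Single mice moved this count. Without control replicate 2, which had the lowest level among controls for 8 members, 3 members were called (Mog, Mag and Cnp), and without nlsYAP5SA replicate 2 it was 3 as well (Mbp, Mog and Mag). Over all genes, 1442 and 1290 were called in these fits, against 1761 with every mouse. With any of the other 8 mice left out, 0 members and 1210 to 1891 of all genes were called. DESeq2's Wald test called Mbp and Cnp, 2 of 9, where it called 5.49% of all genes lower. The direction held for each member in all 21 alternatives tried, with medians over the members between -0.41 and -0.68.

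**Figure D2:**
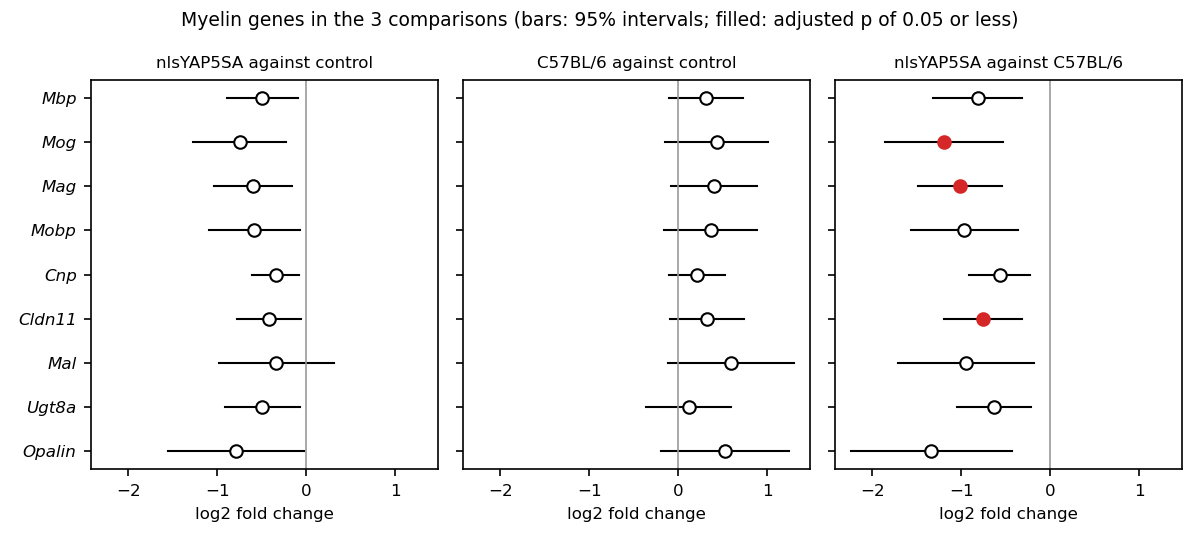
Log2 fold change of each myelin gene in 3 comparisons, with 95% intervals of the edgeR fit and filled points for an adjusted p of 0.05 or less. In nlsYAP5SA against control mice all 9 points lie below 0 and none is filled, in C57BL/6 against control mice all 9 lie above 0 and none is filled, and in nlsYAP5SA against C57BL/6 mice 3 are filled, Mog, Mag and Cldn11.

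C57BL/6 mice, which had no transgene, tended to the other side of the controls. All 9 members had a fold change above 0 against control, a direction found for 50.7% of all genes, and the median was 0.37 on the log2 scale (range 0.12 to 0.59). None was called by edgeR, with an adjusted p of 0.9996 for each, where it called 0.169% of all genes. At an unadjusted p up to 0.05 stood 0 of 9, beside 3.78% of all genes, and DESeq2 called 0 of 9, beside 0.357%. Mal had the largest difference, 0.59 ± 0.32, and Ugt8a the smallest, 0.12 ± 0.21. Without C57BL/6 replicate 2 the median over the members was 0.12 in place of 0.37, and without C57BL/6 replicate 3 the fold change of Ugt8a was -0.03.

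The widest gap was that between nlsYAP5SA and C57BL/6 mice, a comparison that shares its mutant mice with the first. Mag fell by 1.02 on the log2 scale (SE 0.21, adjusted p = 0.0212), Mog fell by 1.20 (SE 0.30, adjusted p = 0.0434) and Cldn11 fell by 0.76 (SE 0.19, adjusted p = 0.0488). These 3 of 9 were called lower, as were 2.22% of 16641 genes, and with p left unadjusted all 9 stood at 0.05 or below, beside 10.2% of all genes in that direction. The other 6 members stood at -0.82 for Mbp, -0.97 for Mobp, -0.57 for Cnp, -0.95 for Mal, -0.63 for Ugt8a and -1.33 for Opalin, with adjusted p between 0.0567 and 0.148. The median over the 9 was -0.95, beside -0.01 over all genes. In 6 of 9, Mbp, Mog, Mag, Cnp, Cldn11 and Opalin, every mutant was below every C57BL/6 mouse, which was so for 6.47% of all genes.

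The number of called members in this comparison depended on which mice and settings entered. Without C57BL/6 replicates 1, 2 and 3 in turn it was 1, 0 and 5, and without nlsYAP5SA replicates 1 to 5 in turn it was 0, 6, 1, 1 and 0. Over all genes the calls numbered 401, 581 and 1757 without the C57BL/6 replicates and 636, 645, 962, 978 and 509 without the nlsYAP5SA replicates, against 1061 with every mouse. Without C57BL/6 replicate 2 the median over the members moved from -0.95 to -0.61 and the value of Mal from -0.95 to -0.57. DESeq2 called 7 of 9, where it called 3.87% of all genes lower. All 9 fold changes stayed below 0 in each of the 19 alternatives, and in the edgeR fit 52.1% of all genes lay below 0.

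**Figure D3:**
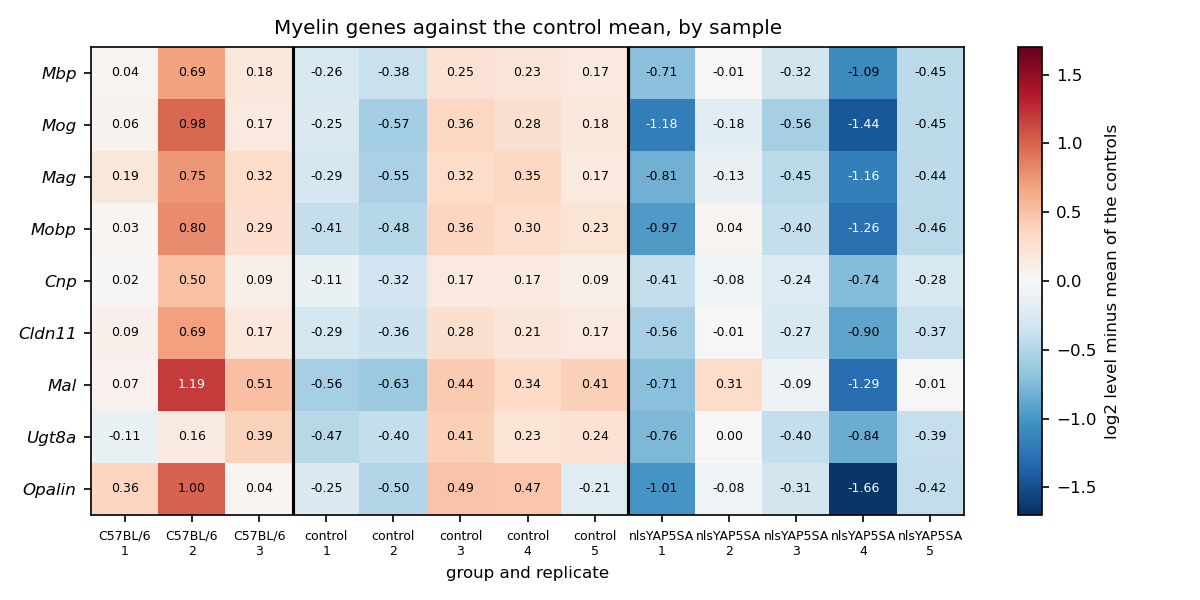
Log2 level (CPM plus 0.5) of each myelin gene minus its mean over the 5 controls, for 13 samples in columns and 9 genes in rows, with the value printed in each cell. In all columns but control 5, nlsYAP5SA 2 and C57BL/6 1 the 9 cells share their sign, from the dark blue of nlsYAP5SA replicate 4, whose mean over the members was -1.15, to the red of C57BL/6 replicate 2, whose mean was 0.75.

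The shared movement within groups was measured as the correlation of deviations from the group mean over 13 samples. Over the 36 pairs of members, Pearson's r had a median of 0.968 and ran from 0.676 to 0.993, and over the 21 pairs without Ugt8a and Opalin it stayed between 0.955 and 0.993. Ugt8a stood apart, with r between 0.676 and 0.887 to the other members, and Opalin, the rarest, reached 0.676 to 0.924. All members of a sample share its library and its piece of tissue. Relative to the mean of the controls, the mean over the members was -0.32, -0.47, 0.34, 0.29 and 0.16 on the log2 scale in controls 1 to 5. It was -0.79, -0.01, -0.34, -1.15 and -0.36 in nlsYAP5SA mice 1 to 5, and 0.08, 0.75 and 0.24 in C57BL/6 mice 1 to 3. Controls 2 and 3 were farther apart than the means of the control and nlsYAP5SA groups.

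Among 13445 other genes with at least 50 counts on average, those whose deviations were most like the mean of the members included Parp1 with r of 0.972, Fa2h at 0.968, Lamp5 at 0.963, Nipal4 at 0.960, Tmem125 at 0.959, Nefl at 0.952 and Lynx1 at 0.951, and 37 genes reached 0.9. The deviations of Trim67 ran opposite, with r of -0.980, as did those of Kdm2b at -0.964 and Dpysl3 at -0.960, 3 genes chosen with their values in view.

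The expression of Y-linked genes was not spread evenly over the groups. The summed level of Ddx3y, Eif2s3y, Kdm5d and Uty exceeded 10 CPM in 5 of 5 controls, in 2 of 5 nlsYAP5SA mice (replicates 3 and 4) and in 2 of 3 C57BL/6 mice, all but replicate 2, in which 8 of the 9 members were highest. Mbp was at 601 and 1025 CPM in the 2 mutants with Y-linked expression and at 779, 935 and 1271 in the 3 without. Among mice with Y-linked expression alone, the fold changes of the members between nlsYAP5SA and control mice lay between -1.11 and -0.48, with adjusted p of 0.186 to 0.660. With the Y-linked level as a covariate, the median was -0.66 and 0 members were called, and over all genes 542 were called in place of 1761. Against C57BL/6 mice the covariate gave 6 called members among 834 called genes. In mice with Y-linked expression alone, where 47 genes were called in all, it was 0.

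Of 21 other myelin and mature oligodendrocyte genes that passed the filter, out of 22 listed, 4 fell and 1 rose in nlsYAP5SA against control mice, where 3.44% of all genes were called lower and 7.36% higher, and the median was -0.17. Gjb1, a connexin that joins the layers of the sheath, fell by 0.88 on the log2 scale (adjusted p = 0.0153), with 2.04 to 3.27 CPM in controls and 0.913 to 1.98 in nlsYAP5SA mice and no overlap. Pllp, a proteolipid related to Mal, fell by 0.34 (adjusted p = 0.0278), and its groups did not overlap, with 35.0 to 39.0 CPM in controls and 22.9 to 33.5 in nlsYAP5SA mice. Ermn, a cytoskeletal protein of late oligodendrocytes named after its value was seen, fell by 0.88 (adjusted p = 0.0396). Ndrg1 rose by 0.40 (adjusted p = 0.0345), from 27.6 ± 2.85 to 36.4 ± 6.04 CPM. Leaving out 1 mouse at a time ended the call of Pllp in 3 of 10 fits, of Ermn in 7 and of Ndrg1 in 6, at adjusted p of up to 0.0719, 0.0967 and 0.0788, and did not end that of Gjb1. With the Y-linked covariate the calls of Ermn (adjusted p = 0.117) and Ndrg1 (adjusted p = 0.338) were lost. The call of Gjb1 was lost with the replicate number as a block (adjusted p = 0.0648) and in mice with Y-linked expression alone (adjusted p = 0.0549).

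Of 10 tested enzymes of galactolipid and sphingolipid metabolism, a list of enzymes that make the lipids of the sheath and of lysosomal enzymes that break them down (Asah1, Galc and Arsa), 2 fell and 1 rose. Gal3st1, which adds the sulfate that turns the product of Ugt8a into sulfatide, fell by 0.58 (adjusted p = 0.00214), with 12.2 to 16.0 CPM in controls and 8.24 to 9.75 in nlsYAP5SA mice. Fa2h, which hydroxylates the fatty acids of these lipids, fell by 0.63 (adjusted p = 0.0178), from 19.1 ± 3.47 to 12.4 ± 2.51 CPM, and its adjusted p was 0.0521 without control replicate 4, 0.0506 without nlsYAP5SA replicate 1 and 0.0657 with the Y-linked covariate. Asah1, the acid ceramidase, which breaks ceramide down in lysosomes, rose by 0.28 (adjusted p = 0.00338). The median of the list was -0.09.

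**Figure D4:**
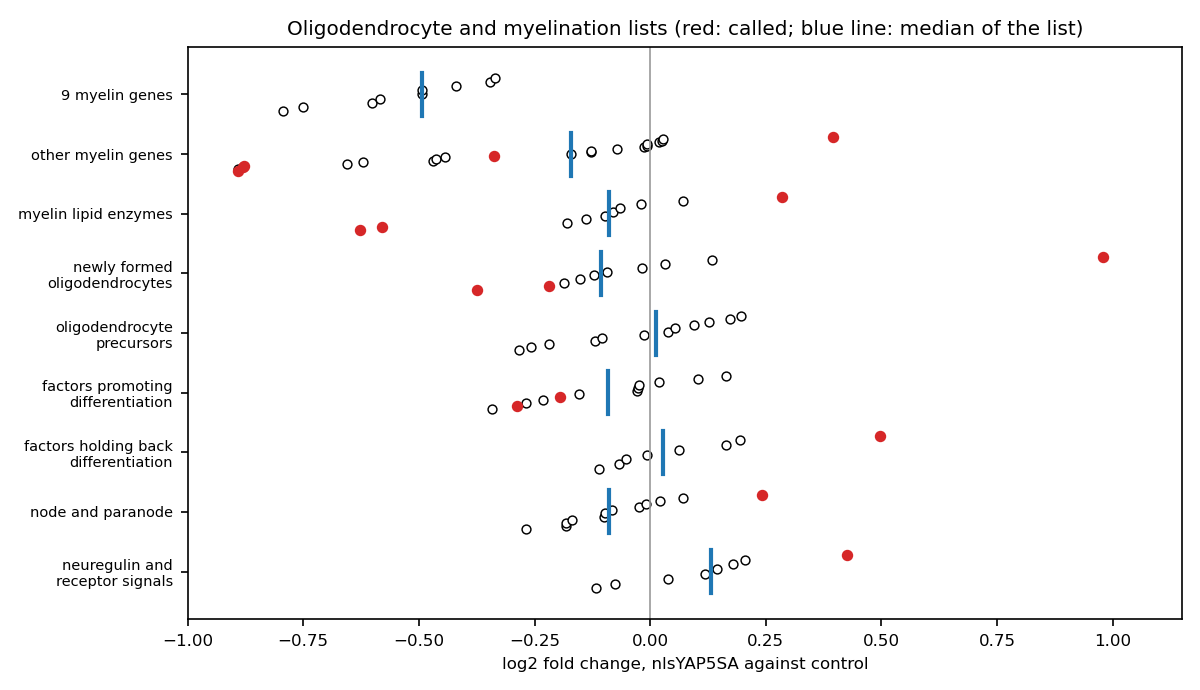
Log2 fold change between nlsYAP5SA and control mice for the 9 myelin genes and 8 lists of oligodendrocyte and myelination genes, 1 point a gene, red where the adjusted p was 0.05 or less, with a blue line at the median of each list. The median was lowest for the 9 myelin genes, at -0.49, and the 12 precursor genes were centred near 0, at 0.01.

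Medians of earlier stages lay closer to 0. Among 10 genes of newly formed oligodendrocytes 2 fell and 1 rose, with a median of -0.11. Gpr17, the receptor that marks this stage, fell by 0.38 (adjusted p = 0.0169), from 251 ± 32.2 to 194 ± 16.5 CPM, and its adjusted p was 0.0525 without control replicate 4, 0.0503 without nlsYAP5SA replicate 1 and 0.0686 with the Y-linked covariate. Ust, a sulfotransferase, fell by 0.22 (adjusted p = 0.0487), a call lost in 8 of the 10 fits with 1 mouse left out, at adjusted p of up to 0.127, and with the Y-linked covariate (adjusted p = 0.554). Bmp4, a secreted ligand that other cells make as well, rose by 0.98 (adjusted p = 0.000147), from 8.11 ± 1.22 to 16.0 ± 1.697 CPM. None of 12 genes of oligodendrocyte precursors was called by edgeR, 3 stood at 0.05 or below with p left unadjusted, DESeq2 called 0, and the median was 0.01. Tnr, the most abundant of them, was at 256 ± 67.2 CPM in controls and 273 ± 55.3 in nlsYAP5SA mice (log2 fold change 0.09, adjusted p = 0.793). Its direction turned without control replicate 1 or without nlsYAP5SA replicate 2, at -0.01 in both. It also turned with the Y-linked covariate and, to -0.13, in mice with Y-linked expression alone.

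Of 12 transcription factors that promote the differentiation of oligodendrocytes, 2 were called by edgeR, both lower, and 3 by DESeq2 (Nkx2-2, Olig1 and Sox8). Olig1 fell by 0.29 (adjusted p = 0.00649), with 134 to 158 CPM in controls and 111 to 124 in nlsYAP5SA mice, and Sox8 fell by 0.19 (adjusted p = 0.0270), the latter a call lost in 5 of the 10 fits with 1 mouse left out, at adjusted p of up to 0.0858. Both calls were lost with the Y-linked covariate, at adjusted p of 0.0580 for Olig1 and 0.127 for Sox8. Of 8 factors that hold differentiation back, Id4, an inhibitor of bHLH proteins that astrocytes also make, was the 1 called and rose by 0.50 (adjusted p = 7.04e-05), from 33.8 to 37.3 CPM in controls to 47.2 to 55.2 in nlsYAP5SA mice. Medians of the lists were -0.09 and 0.03.

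Cntn2, an adhesion molecule beside the node of Ranvier, rose by 0.24 (adjusted p = 0.0378) and was the 1 called of 12 genes of the node and paranode. Erbb2 rose by 0.43 (adjusted p = 0.0309) and was the 1 called of 8 genes of neuregulin and receptor signals for myelination. Leaving out 1 mouse at a time ended the call of Cntn2 in 8 of 10 fits and that of Erbb2 in 7, at adjusted p of up to 0.101 and 0.0750, as did the Y-linked covariate for both (adjusted p of 0.0603 and 0.235). Of 9 neuronal genes, the 3 neurofilament genes fell, Nefl by 0.45 (adjusted p = 0.000213), Nefm by 0.70 (adjusted p = 0.000205) and Nefh by 0.69 (adjusted p = 0.000490). Nefh was at 72.9 to 99.4 CPM in controls and 48.4 to 63.0 in nlsYAP5SA mice, with no overlap. The summed level of the neuronal list was 4678 to 5196 CPM in controls and 4095 to 4606 in nlsYAP5SA mice, and its part in the levels of the members was not tested.

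Lists of markers of other cells differed in how many members were called. Of 6 astrocyte genes 3 rose, with Gfap at 181 ± 8.51 CPM in controls and 754 ± 73.5 in nlsYAP5SA mice (log2 fold change 2.06, adjusted p = 1.34e-08), beside Gja1 at 0.36 and Slc1a3 at 0.31, whose calls were each lost in 4 of the 10 fits with 1 mouse left out and with the Y-linked covariate (adjusted p of 0.441 and 0.375). The summed level of the list was 2911 to 5377 CPM in controls and 4829 to 6604 in nlsYAP5SA mice. Of 6 microglial genes 5 rose, among them C1qa by 1.18, Aif1 by 0.84, Csf1r by 0.76 and Cx3cr1 by 0.68, and the summed level of the list was 210 to 270 CPM in controls and 308 to 407 in nlsYAP5SA mice. Tmem119, the fifth and named after its value was seen, rose by 0.36 (adjusted p = 0.0309) and lost its call in 6 of the 10 fits and with the Y-linked covariate (adjusted p = 0.273). Of 6 choroid plexus genes edgeR called Folr1, higher at 2.203 (adjusted p = 0.0133, and 0.150 with the Y-linked covariate), and DESeq2 called 2 (Clic6 and Folr1), with a summed level of 9.16 to 233 CPM in controls and 10.7 to 306 in nlsYAP5SA mice. None of 6 genes of the arachnoid and meninges was called by edgeR or DESeq2, with Col1a1 at 0.50 (adjusted p = 0.135) and 2 genes at or below 0.05 with p left unadjusted. Col1a1 was called without nlsYAP5SA replicate 3, at 0.63 (adjusted p = 0.0280), and had 0.27 with the Y-linked covariate (adjusted p = 0.748). The summed level of the list was 76.0 to 117 CPM in controls and 87.4 to 131 in nlsYAP5SA mice. Pmp22 and Prx, 2 of the 4 tested genes of Schwann cells, rose by 0.50 and 0.78, the call of Prx being lost with the Y-linked covariate (adjusted p = 0.0768). The other tested genes of this list, Egr2 at -0.48 (adjusted p = 0.192) and Drp2 at -0.10 (adjusted p = 0.394), lay below 0 and were not called. Both were named after their values were seen. The summed level of the 6 listed was 74.2 to 90.4 CPM in controls and 81.2 to 92.7 in nlsYAP5SA mice. Whether these shifts bear on the members was not tested.

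Regional markers were compared because myelin differs between brain regions. Rgs16 fell by 0.43 (adjusted p = 0.0120) and was the 1 edgeR called of 6 thalamic genes, of which 3 stood at 0.05 or below with p left unadjusted and DESeq2 called 3 (Lef1, Ramp3 and Rgs16). The summed level of the list was 87.0 to 110 CPM in controls, 76.4 to 96.8 in nlsYAP5SA mice and 90.1 to 115 in C57BL/6 mice. Of the 13 hindbrain and brain stem genes 3 passed the filter, 2 of them at or below 0.05 with p left unadjusted, and edgeR called none, while DESeq2 called Tph2. In the edgeR fit Tph2 had -0.92 on the log2 scale (adjusted p = 0.0563), and it was called in 7 of 21 alternatives, DESeq2 and 6 edgeR fits, among them the fit without control replicate 2, with adjusted p of 0.0245 to 0.476 over the 21. The summed level was 3.11 to 10.02 CPM in controls, 2.09 to 3.64 in nlsYAP5SA mice and 3.55 to 4.97 in C57BL/6 mice. Car8 had -0.21 (adjusted p = 0.255) and neither edgeR nor DESeq2 called any of the 3 cerebellar genes tested. The 1 at or below 0.05 before adjustment was Cbln3, which lay on the other side, at 0.78 (adjusted p = 0.0556). Barhl1 had -0.22 (adjusted p = 0.817). Cbln3 and Barhl1 were named after their values were seen. Without nlsYAP5SA replicate 4 Car8 was called, at -0.32 (adjusted p = 0.0108). The summed level of the 5 listed cerebellar genes was 35.2 to 38.9 CPM in controls and 26.5 to 41.8 in nlsYAP5SA mice. The bearing of these regional markers on the members was not tested.

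With the Y-linked level as a covariate, 17 of the 34 called genes that are not members lost their call in nlsYAP5SA against control mice. Against C57BL/6 mice the medians of nlsYAP5SA mice were -0.95 for the members, -0.22 for the other myelin genes, -0.13 for the lipid enzymes, -0.11 for newly formed oligodendrocytes and -0.01 for precursors. Of the other myelin genes 4 of 21 fell, where 2.22% of all genes were called lower and 4.16% higher, among them Ermn at -1.22 (adjusted p = 0.0159), Plekhh1 at -0.74 (adjusted p = 0.0220) and Pllp at -0.57 (adjusted p = 0.0434). Fa2h fell by 0.77 (adjusted p = 0.0231) and Gpr17 fell by 0.40 (adjusted p = 0.0193). Nkx6-2, a homeodomain factor of oligodendrocytes, fell by 1.04 (adjusted p = 0.0171) and was the 1 edgeR called of the 12 factors that promote differentiation, where DESeq2 called 2 (Nkx6-2 and Olig1). Plekhh1 and Nkx6-2 were named after their values were seen. Bmp4 rose by 0.68 (adjusted p = 0.00839) and Id4 by 0.49 (adjusted p = 0.00494). None of 12 precursor genes was called by edgeR, 3 stood at 0.05 or below with p left unadjusted, and DESeq2 called 0. For these list genes, fits against C57BL/6 mice with single mice left out are not reported here.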

How the data were processed

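Hemisphere RNA of 13 mice at postnatal day 11 was grouped by the labels into 5 control, 5 nlsYAP5SA and 3 C57BL/6 samples, with totals of 20871566 to 25524349. The authors deposited estimated counts per gene, not normalized, made with RSEM 1.3.0 after cutadapt 1.5 and STAR on GRCm38 with Ensembl genes, from an mRNA kit. Reads that match several genes are shared among them, so 12.4% to 13.3% of the values of a sample were not whole (over 0.001 from a whole number), and no strand setting is given in the sources used here. Estimated counts were rounded, normalized with TMM and filtered with filterByExpr (minimum count 10, minimum total 15). Genes were tested with edgeR 4.0.16 in R 4.3.3 (quasi-likelihood, two-sided) with calls at 0.05 or below after Benjamini-Hochberg adjustment. Positions and lengths come from GENCODE M21 on GRCm38, a later release than that of the counts. Promoters come from RefSeq on GRCm38.p6, without those on chromosome 18. Log2 levels used CPM plus 0.5.

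The named genes were all 9 members, every gene called in nlsYAP5SA against control mice in each of 17 other lists, up to the 4 with the smallest adjusted p (the gene with the highest mean count where none was called), the 8 genes with at least 50 counts most like the members, Yap1, Neurod6, Ttr and the sum of 4 Y-linked genes. Some genes that this rule takes are not reported here. The members and lists were chosen with earlier results of these data known. Alternatives were DESeq2's size factors, library size alone, no filter, at least 10 counts in every sample, DESeq2 1.42.0, all 13 samples in 1 fit, the replicate number as a block, Y-linked and Ttr covariates, an offset for GC content and length, each mouse left out, and, added after the data were seen, mice with Y-linked expression alone. No 2 libraries of a group agreed within counting noise, the smallest chi-square statistic being 7.22 per degree of freedom.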

Additional observations from a re-analysis of the deposited data

How the results depend on the processing

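For nlsYAP5SA against control mice, 0 of the 9 members were called by edgeR, 1 with no filter, 2 by DESeq2 and 0 to 3 when each mouse was left out. For nlsYAP5SA against C57BL/6 mice, 3 were called, and 6 with no filter, with all 13 samples in 1 fit, with the Y-linked covariate or with the offset for GC content and length, 7 by DESeq2, 8 with the Ttr covariate, 0 with the replicate block, 0 in mice with Y-linked expression alone and 0 to 6 when each mouse was left out. The cause of these shifts was not tested. For C57BL/6 against control mice the count was 0 in all 19 alternatives. Of 189 fold changes of members between nlsYAP5SA and control mice over 21 alternatives none turned, and none of 171 between nlsYAP5SA and C57BL/6 mice, whereas Ugt8a in C57BL/6 against control mice turned to -0.032 without C57BL/6 replicate 3 (-0.032 to 0.236 when each mouse was left out). Tnr turned from 0.09 to -0.10 with the Y-linked covariate, to -0.13 in mice with Y-linked expression alone, to -0.014 without control replicate 1 and to -0.013 without nlsYAP5SA replicate 2 (-0.014 to 0.209 when each mouse was left out). Of 34 other genes called in nlsYAP5SA against control mice, 9 kept their call in every alternative. Over all genes, 1761 calls became 1605 with no filter, 2259 by DESeq2, 542 with the Y-linked covariate and 334 in mice with Y-linked expression alone. For C57BL/6 against control mice 28 became 16 with at least 10 counts in every sample, 59 by DESeq2, 44 with all 13 samples in 1 fit and 15 with the block. For nlsYAP5SA against C57BL/6 mice 1061 became 1037 with no filter, 1522 with all 13 samples in 1 fit and 1596 by DESeq2. The Y-linked covariate gave 834 calls, the Ttr covariate 1033 and the offset 1722. The number was 47 with the block, 47 in mice with Y-linked expression alone and 401 to 1757 when each mouse was left out. The labels do not say whether replicate numbers pair the samples. Deviations of same-numbered control and nlsYAP5SA samples correlated at -0.42 to 0.42, control and C57BL/6 samples at 0.002 to 0.60, and nlsYAP5SA and C57BL/6 samples at -0.35 to 0.07. Samples with different numbers were not compared in this way, so these values cannot decide it. With the block the members' fold changes between nlsYAP5SA and control mice ran from -0.82 to -0.35, with 0 called. The low counts of Opalin limit its precision, and 3 C57BL/6 mice that are not littermates limit both comparisons with them.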
